A study of Mus musculus with 6 samples.

Results

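The genes described here encode the mitochondrial ribosomal proteins, taken as every gene of the deposited table whose symbol begins with Mrpl or Mrps followed by a digit. There were 77 such genes among 18039, of which 48 carry the Mrpl name of the large subunit and 29 the Mrps name of the small subunit. All 77 passed the filter on low counts, which 12483 genes passed in all. Cultured mouse macrophages, grown out of marrow precursors, were compared between the genotypes Ctrl and KAT7KO, with 3 libraries each of paired-end bulk RNA-seq. Cells of both genotypes were cultured for 7 days with 20 ng/mL of M-CSF, a cytokine that macrophages need to form and survive. KAT7 is a histone acetyltransferase of the MYST family. The labels give neither the KAT7KO allele nor the cells in which the gene was disrupted, and no strain, sex or age. They call the replicates biological without saying whether each was a separate animal, so the spread behind each p-value is that among libraries, which may be technical.

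Mitochondrial ribosomes translate the few messenger RNAs of the mitochondrial genome, which encode subunits of the respiratory chain and ATP synthase. Their RNA is encoded in mitochondrial DNA, whereas their proteins are encoded in the nucleus, made in the cytosol and imported. Many of the proteins descend from bacterial ribosomal proteins, and the rest are particular to mitochondria.

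Library totals lay between 19906726 and 20660090 counts, with 15890 to 16198 genes detected per library. Kat7, the targeted gene, was measured at 73.2, 70.3 and 69 CPM (counts scaled to library size) in Ctrl replicates 1 to 3 and at 41.4, 42.2 and 38.2 CPM in KAT7KO replicates 1 to 3. Its level in KAT7KO was 57.3% of Ctrl, a log2 fold change of -0.80 ± 0.06 (SE) with an adjusted p of 9.63e-07. Kat7 reads were thus still counted in KAT7KO, and a gene total does not show from which exons. All 9 macrophage markers passed the filter; their summed level was 27400 to 37100 CPM in Ctrl and 22200 to 23000 CPM in KAT7KO, and 3 of them were called lower, Lyz2 and Itgam among them. Most of the sum was Lyz2, at 22900 to 32800 CPM in Ctrl and 17600 to 18400 CPM in KAT7KO. Adgre1 (log2 fold change 0.11, adjusted p = 0.113), Cd68 (0.10, adjusted p = 0.116) and Cd14 (0.09, adjusted p = 0.19) lay above 0 and did not pass. Summed neutrophil markers were 9.61 to 9.98 CPM in Ctrl and 13.2 to 13.7 CPM in KAT7KO, with 1 of 2 tested called higher. That gene was S100a8, at 5.9 to 6.17 CPM in Ctrl and 10.3 to 11.5 CPM in KAT7KO. Prtn3, the other gene tested, had a log2 fold change of -0.47 (adjusted p = 0.186). Summed B cell markers were 4.15 to 5.57 CPM in Ctrl and 8.15 to 9.27 CPM in KAT7KO, with 2 of 4 tested called higher. Summed stromal markers were 769 to 986 CPM in Ctrl and 703 to 719 CPM in KAT7KO, with 3 of 6 called lower, and summed erythroid and megakaryocyte markers were 49.8 to 68.3 and 36.7 to 39.4 CPM, with 1 tested and called lower. Most of the latter sum was that gene, Pf4, at 49.2 to 67.5 CPM in Ctrl and 35.9 to 39.1 CPM in KAT7KO. T and NK cell markers summed to 1.81 to 2.05 and 2 to 3.74 CPM and dendritic cell markers to 2.79 to 4.78 and 3.51 to 3.73 CPM, with none called. The part of these cells in the results below was not tested.

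Of the 77 mitochondrial ribosomal protein genes, 19 were higher in KAT7KO and 1, Mrps6, was lower at an adjusted p under 0.05, while 57 did not pass. Over all genes tested, 10.7% were called higher and 13.2% lower. The 19 make up 24.7% of the members. The share called higher over all genes fell with gene length, and the members are short. Among genes with under 1500 bases of merged exon, 4 of 19 members were higher against 17.8% of all genes, and 8 of 27 against 15.1% between 1500 and 3000 bases. For 3000 to 6000 bases the counts were 6 of 19 members against 10.3%, and above 6000 bases 1 of 12 against 6.79%. By principal transcript length they were 12 of 47 against 19.7% below 1500 bases, 6 of 14 against 13.1%, 1 of 14 against 7.72% and 0 of 2 against 3.31% in the longest class. The changes were small. The median log2 fold change of the members was 0.17, with middle quartiles of 0.11 and 0.27 and a range from -0.44 to 0.56, against a median of 0.00 for all genes tested. The fold change was above 0 in 69 of the 77 members, against 50.3% of all genes. In 30 members every KAT7KO library lay above every Ctrl library, against 19.9% of all genes, and in 2, Mrps6 and Mrpl42, every KAT7KO library lay below, against 21.2%. When a change of more than 1.2-fold was asked for, 1 member passed, Mrpl41, against 1.59% of all genes higher and 5.13% lower. In bulk RNA, fewer cells of a type and less RNA per cell cannot be told apart.

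**Figure D1:**
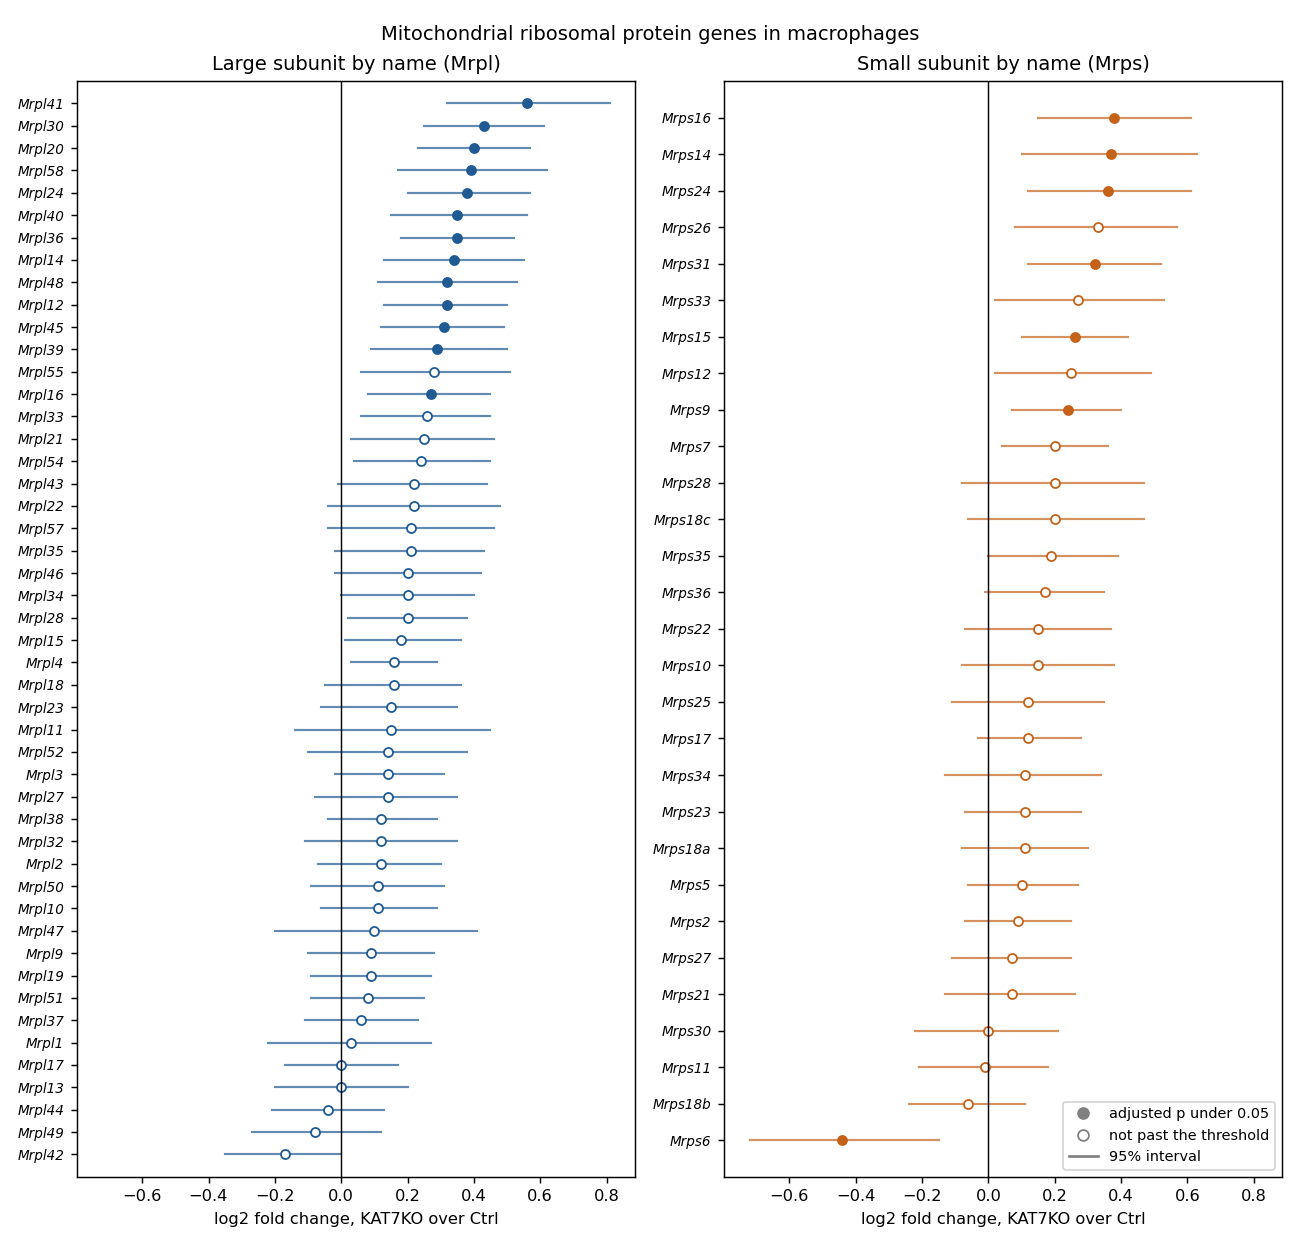
Log2 fold change (KAT7KO over Ctrl, horizontal axis) of each of the 77 genes, with its 95% interval, large-subunit names on the left and small-subunit names on the right; filled points passed an adjusted p of 0.05. Most points lie to the right of 0, from -0.44 for Mrps6 to 0.56 for Mrpl41, and 19 filled points lie above 0.

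The size of the difference rested in part on Ctrl replicate 1. The summed level of the 77 genes was 1823, 2132 and 2245 CPM in Ctrl replicates 1 to 3 and 2357, 2392 and 2368 CPM in the KAT7KO libraries. The KAT7KO libraries were thus close together and all above Ctrl, while Ctrl replicate 1 lay well below the other Ctrl libraries. The Ctrl sums averaged 2067 ± 218 CPM, and those of KAT7KO 2372 ± 17.9 CPM (SD, n = 3). Ctrl replicate 1 was the lowest of all 6 libraries for 67 of the 77 genes. Among the Ctrl libraries it was the lowest for 69 of them, against 41.8% of all genes tested. Relative to the Ctrl mean of each gene, the median member stood at -0.18, 0.05 and 0.12 on the log2 scale in Ctrl replicates 1 to 3 and at 0.17, 0.21 and 0.17 in KAT7KO, whereas the median of all genes stayed between -0.01 and 0.01.

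**Figure D2:**
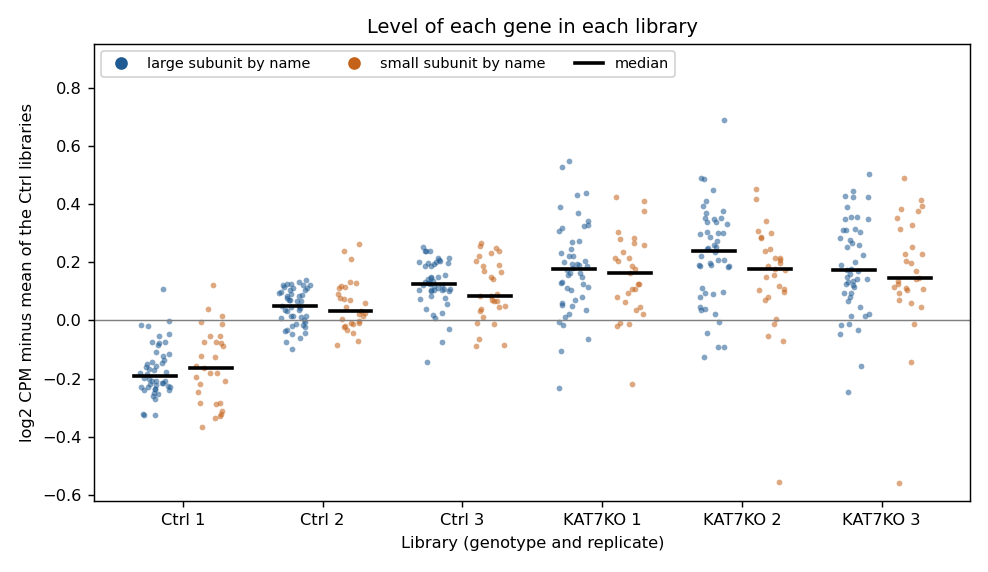
Level of each of the 77 genes in each library, as log2 CPM minus that gene's mean over the Ctrl libraries; each point is a gene and each bar the median of the large-subunit or small-subunit names. Ctrl 1 has medians of -0.19 and -0.16, the other Ctrl libraries 0.03 to 0.13, and the KAT7KO libraries 0.14 to 0.24.

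With Ctrl replicate 1 left out, 18 members were called higher and 2 lower, where 13.5% of all genes were called higher and 14.4% lower. Of the 19 members called higher with all libraries, 17 were called again. Mrpl39 (adjusted p = 0.0757) and Mrps9 (adjusted p = 0.0679) were lost, Mrpl43 was gained, and Mrpl42 joined Mrps6 among the lower. The median log2 fold change of the members was then 0.10, and 61 of 77 were above 0, against 6361 of 12673 genes. All 3 KAT7KO libraries lay above both remaining Ctrl libraries for 30 members, against 25.3% of all genes, and the KAT7KO mean lay above the mean of Ctrl replicates 2 and 3 for 62 members, against 50.5%.

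The number of calls also changed with the other libraries. Without Ctrl replicate 2, 14 members were higher and 0 lower, where 6.57% of all genes were higher and 9.3% lower. Without Ctrl replicate 3, 35 members were higher and 1 lower, against 13.4% and 14.2% of all genes. Leaving out KAT7KO replicate 1 gave 8 members higher and 1 lower, against 5.61% and 8.94%. Leaving out KAT7KO replicate 2 gave 6 and 0, against 5.21% and 8.42%, and leaving out KAT7KO replicate 3 gave 6 and 0, against 5.82% and 8.43%. The share of all genes called fell with the number of members in these last fits. Mrpl20, Mrpl24, Mrpl30, Mrpl36 and Mrpl41 were called higher in each of the 6 fits that left out a library.

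A gene-length trend separated Ctrl replicate 1 from the other Ctrl libraries. Over the 12483 genes, its log2 CPM against the mean of the other Ctrl libraries rose by 0.10 for each doubling of merged exon length (Spearman correlation 0.42 across genes, which are not independent replicates). The same slope was -0.02 for Ctrl replicate 2 (Spearman correlation -0.17), -0.08 for Ctrl replicate 3 (-0.37) and 0.00 to -0.01 for the KAT7KO libraries. Each library was set against the others of its group, so Ctrl replicate 1 enters the slopes of Ctrl replicates 2 and 3. Those slopes were unequal, so Ctrl replicates 2 and 3 also differed from each other by length. The members are short genes: their median merged exon length was 2533 bases, against 4444 for all genes tested, and that of their principal transcript 1280 bases, against 2984.

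Short members were low in Ctrl replicate 1, as short genes were in general, but long members were low there too. Below 1500 bases, the median difference of Ctrl replicate 1 from the other Ctrl libraries was -0.31 for 19 members and -0.25 for all 856 genes. Above 6000 bases it was -0.24 for 12 members, while the 3992 genes of that class stood at 0.10. Between these bounds the members stood at -0.21 (1500 to 3000 bases, 27 members) and -0.32 (3000 to 6000 bases, 19 members), against -0.12 and -0.01 for all genes. Over the 77 genes the median difference was -0.27, and -0.16 after the trend was taken out. Among the members the rank correlation of length with this difference was 0.15, and with the fold change between genotypes -0.22, both given as descriptions over genes that share the same libraries.

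**Figure D3:**
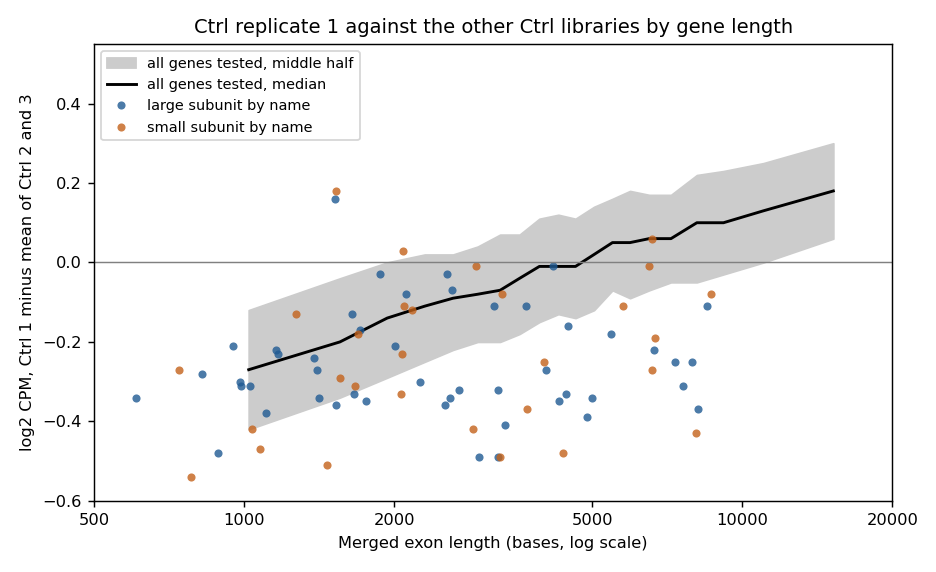
Log2 CPM of Ctrl replicate 1 minus the mean of Ctrl replicates 2 and 3 (vertical axis) against merged exon length (horizontal axis, log scale); the line and band are the median and the middle quartiles of all genes tested in bins of length, and points are the 77 genes. The line climbs from -0.27 to above 0, while the points stay mostly below 0 at every length, with a median of -0.27.

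Removing the length trend from every library raised the number of calls. There were then 28 members higher and 1 lower, including all 19 called before and 9 more, among 20.5% of all genes higher and 12.2% lower (2554 and 1521 genes, against 1335 and 1652 with no trend removed). The median of the members stayed at 0.17, but that of all genes moved to 0.06. By length class the member medians were 0.13, 0.16, 0.20 and 0.22 from the shortest to the longest, against 0.20, 0.16, 0.15 and 0.13 before the removal. The medians of all genes in the same classes were 0.07, 0.06, 0.06 and 0.06 after the removal and 0.16, 0.07, 0.00 and -0.05 before it, so the members of the shortest class lay closest to the genes of their length. With the trend removed and Ctrl replicate 1 also left out, 26 members were higher and 1 lower, with a median of 0.11 against 0.06 for all genes, where 22.1% of all genes were called higher and 12% lower. A trend on principal transcript length in place of merged length gave 24 members higher and 2 lower (22.2% and 12.5% of all genes), and a robust trend 21 higher and 1 lower (13.4% and 14.7%). Taking the replicate number as a block together with the trend on merged length gave 30 higher and 1 lower (20.4% and 11.9%), and the block alone 21 higher and 1 lower (10.3% and 12.2%).

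**Figure D4:**
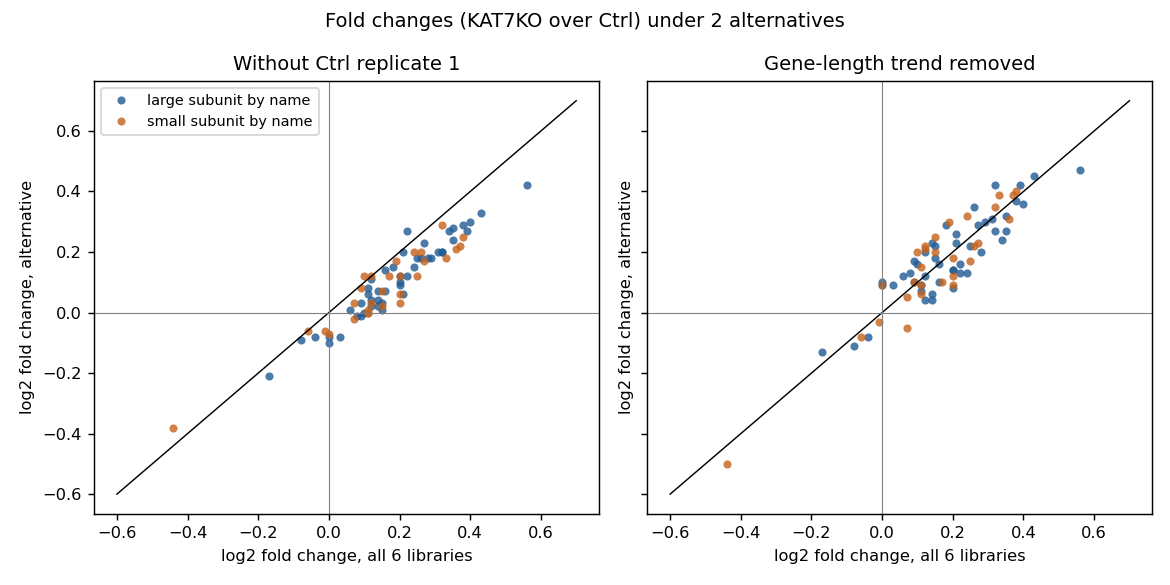
Log2 fold change of each of the 77 genes under an alternative (vertical axis) against that with all 6 libraries (horizontal axis); the diagonal marks equal values. Without Ctrl replicate 1 most points lie below the diagonal, with a median of 0.10 in place of 0.17; with the length trend removed they lie on both sides of it, with a median of 0.17.

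Members of both subunits were called higher, where 10.7% of all genes were called higher and 13.2% lower. Of the 48 large-subunit names, 13 were higher and 0 lower, with a median log2 fold change of 0.19 and 44 above 0; at an unadjusted p under 0.05, 20 of the 48 passed in either direction, against 4534 of all 12483 genes. Of the 29 small-subunit names, 6 were higher and 1 lower, with a median of 0.15 and 25 above 0, and 12 of the 29 passed at an unadjusted p under 0.05. The ratio of summed large-subunit to summed small-subunit CPM was 1.969, 1.962 and 1.993 in Ctrl and 2.021, 2.05 and 1.982 in KAT7KO. The genotypes overlapped in this ratio, with means of 1.975 ± 0.0163 and 2.018 ± 0.0341 (SD, n = 3), and Ctrl replicate 1 did not stand apart in it. No test was made between the subunits. Without Ctrl replicate 1, 13 large-subunit names were higher and 1 lower, and 5 small-subunit names were higher and 1 lower, with medians of 0.10 and 0.08. In that fit 13.5% of all genes were higher and 14.4% lower.

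Names and structures disagree for 3 genes. Structures place the proteins of Mrps18a and Mrps30 in the large subunit, and that of Mrps36 in the alpha-ketoglutarate dehydrogenase complex. Counted that way, 13 of 50 large-subunit genes and 6 of 26 small-subunit genes passed as higher, each group with a median log2 fold change of 0.17. Mrps18a (0.11, adjusted p = 0.395), Mrps30 (0.00, adjusted p = 0.998) and Mrps36 (0.17, adjusted p = 0.171) did not pass. Of the other genes related to the same bacterial protein as Mrps18a, Mrps18b had a log2 fold change of -0.06 (adjusted p = 0.616) and Mrps18c one of 0.20 (adjusted p = 0.257). By origin, 7 of 30 large-subunit genes with a bacterial counterpart were higher and 6 of 20 without one. Mrps18a was counted among these 20, although it is related to a bacterial protein. In the small subunit 5 of 17 with a counterpart were higher and 1 lower, and 1 of 9 without one was higher. The medians of these 4 classes lay between 0.15 and 0.20. Of all genes, 10.7% were called higher and 13.2% lower.

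Promoters of 68 of the 77 genes were at hand in RefSeq (build GRCm38.p6, 250 bases before to 50 after the start). Of these 68 starts, 56 lay within 100 bases of the principal start in GENCODE, so the others may not mark the main promoter. No member without a promoter at hand was called. The 68 promoters were searched on both strands for motifs of factors known to act on nuclear genes of mitochondria. The NRF1 core CGCANGCG was found in 20 of the 68, or 29.4%, against 11.3% of 17492 protein-coding promoters. Members called higher held it in 6 of 19 promoters and members that did not pass in 14 of 48, close to equal shares of 31.6% and 29.2%. With a further G before and C after the core, the motif was in 13 of the 68, or 19.1%, against 6.52% of all promoters, and in the same 6 of 19 and 7 of 48. The ETS motif CCGGAAG, bound by GABPA, was in 24 of 68, or 35.3%, against 12.0% of all promoters, but in 2 of 19 members called higher and 22 of 48 that did not pass. The YY1 motif AAGATGGCG was in 8 of 68, or 11.8%, against 1.95%. The E-box CACGTG (7.35% against 7.89%), the SP1 motif GGGCGG (48.5% against 46.7%) and the CRE TGACGTCA (2.94% against 2.33%) were near the share of all promoters. A match is a description of these letters and not a binding site, and no test was made between the shares. Median GC content was 58% in the member promoters and 56.3% in all.

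Of those 6 members called higher, the 5 whose RefSeq start lies within 100 bases of the principal start in GENCODE are shown, with Mrps6, the member called lower, whose promoter holds no match. Each runs from 170 bases before to 30 bases after the RefSeq start on the + strand of GRCm38.p6, and capitals mark matches to the NRF1 core on either strand. Mrpl30 is at chr1:37890307-37890506, Mrpl12 at chr11:120484467-120484666, Mrpl45 at chr11:97315546-97315745, Mrpl14 at chr17:45686179-45686378, Mrps9 at chr1:42851063-42851262 and Mrps6 at chr16:92058166-92058365. Within these bases Mrpl45 holds 3 matches, Mrpl30 2, and Mrpl12, Mrpl14 and Mrps9 1 each. These 5 were picked because they hold a match. Mrpl20, Mrpl24, Mrpl36, Mrpl40, Mrpl41 and Mrpl58, also called higher, hold none in the bases searched. The 14 members with a match that did not pass are not shown.
Mrpl30 promoter: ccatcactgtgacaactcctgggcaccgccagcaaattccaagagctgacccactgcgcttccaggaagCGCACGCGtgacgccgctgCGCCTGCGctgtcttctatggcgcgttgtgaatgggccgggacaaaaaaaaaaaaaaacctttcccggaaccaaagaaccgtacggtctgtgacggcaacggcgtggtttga
Mrpl12 promoter: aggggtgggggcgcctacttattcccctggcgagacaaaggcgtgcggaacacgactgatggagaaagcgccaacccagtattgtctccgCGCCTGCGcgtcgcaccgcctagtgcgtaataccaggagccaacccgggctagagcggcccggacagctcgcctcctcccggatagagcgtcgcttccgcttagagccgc
Mrpl45 promoter: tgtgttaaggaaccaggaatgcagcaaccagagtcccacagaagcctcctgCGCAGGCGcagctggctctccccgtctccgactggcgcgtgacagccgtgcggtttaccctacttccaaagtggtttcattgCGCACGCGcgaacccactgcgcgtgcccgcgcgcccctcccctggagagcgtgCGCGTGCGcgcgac
Mrpl14 promoter: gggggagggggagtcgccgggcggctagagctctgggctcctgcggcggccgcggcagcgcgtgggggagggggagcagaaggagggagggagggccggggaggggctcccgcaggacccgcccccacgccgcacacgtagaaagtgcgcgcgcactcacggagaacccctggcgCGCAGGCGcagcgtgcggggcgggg
Mrps9 promoter: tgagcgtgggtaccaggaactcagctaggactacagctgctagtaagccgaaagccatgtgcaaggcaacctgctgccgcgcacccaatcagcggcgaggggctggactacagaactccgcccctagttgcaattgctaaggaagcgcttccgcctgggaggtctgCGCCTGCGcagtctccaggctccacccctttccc
Mrps6 promoter: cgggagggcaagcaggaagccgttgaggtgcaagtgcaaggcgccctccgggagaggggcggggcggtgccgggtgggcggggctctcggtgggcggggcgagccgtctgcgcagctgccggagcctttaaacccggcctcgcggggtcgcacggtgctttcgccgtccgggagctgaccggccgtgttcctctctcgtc

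Another gene starts within 500 bases on the opposite strand, pointing away, at 21 of the 68 member promoters, or 30.9%, against 7.03% of all promoters. This was so for 3 of the 19 members called higher, Mrpl14 beside Tmem63b, Mrpl30 beside Mitd1 and Mrpl40 beside Hira, and for 18 of the 48 that did not pass.

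Of the 8 members called higher with the lowest p, 5 are large-subunit genes with a bacterial counterpart. Mrpl20, whose bacterial relative is needed to assemble the large subunit, was measured at 53.6, 65.4 and 69.1 CPM in Ctrl and 84, 79.6 and 84.8 CPM in KAT7KO. The genotypes did not overlap, though the gap between them, from 69.1 to 79.6 CPM, was narrower than the Ctrl range of 53.6 to 69.1 CPM. Its log2 fold change was 0.40 ± 0.08 (SE; adjusted p = 0.00242), or 132% of Ctrl with a 95% interval of 117 to 149%, and 0.30 without Ctrl replicate 1.

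Mrpl30 was measured at 29.7, 37.8 and 36.6 CPM in Ctrl and 45.2, 48.5 and 46.4 CPM in KAT7KO. All KAT7KO libraries were above all Ctrl libraries, by a log2 fold change of 0.43 ± 0.09 (adjusted p = 0.00253). Mrpl36 stood at 31.9, 35.7 and 38.6 CPM in Ctrl and 43.7, 44.6 and 47.3 CPM in KAT7KO. Again the genotypes did not overlap, and the log2 fold change was 0.35 ± 0.08 (adjusted p = 0.00495). Mrpl24, whose bacterial relative binds early in assembly of the large subunit, stood at 37.8, 46.3 and 46.7 CPM in Ctrl and 62.5, 52.9 and 55.2 CPM in KAT7KO. KAT7KO replicate 1 was the highest, the genotypes did not overlap, and the log2 fold change came to 0.38 ± 0.09 (adjusted p = 0.00575). Mrpl12, a protein of the ribosomal stalk that contacts translation factors, stood at 54.6, 66.7 and 73.4 CPM in Ctrl and 80.9, 81.4 and 79.9 CPM in KAT7KO. The KAT7KO libraries were nearly equal and all above Ctrl, by a log2 fold change of 0.32 ± 0.09 (adjusted p = 0.017), which was 0.20 without Ctrl replicate 1.

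Among large-subunit genes particular to mitochondria, Mrpl41 had the largest log2 fold change of all 77. It was measured at 23.3, 31.7 and 33.4 CPM in Ctrl and 42.6, 46.9 and 41.3 CPM in KAT7KO. The genotypes did not overlap, and Ctrl replicate 1 was the lowest. KAT7KO exceeded Ctrl by a log2 fold change of 0.56 ± 0.11 (adjusted p = 0.00291), or 148% of Ctrl with a 95% interval of 125 to 175%, and 0.42 without Ctrl replicate 1. Mrpl58, a peptidyl-tRNA hydrolase that is also built into the large subunit and can release stalled chains, stood at 19.1, 24.2 and 26.5 CPM in Ctrl and 29.8, 32.3 and 29.5 CPM in KAT7KO. No Ctrl library reached the KAT7KO range, and the log2 fold change was 0.39 ± 0.10 (adjusted p = 0.015). Mrpl40 stood at 26.4, 31.9 and 35.8 CPM in Ctrl and 42.2, 38.3 and 39.6 CPM in KAT7KO. The gap between the genotypes was narrow beside the Ctrl spread, with a log2 fold change of 0.35 ± 0.10 (adjusted p = 0.0167).

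The other members called higher had log2 fold changes from 0.24 (Mrps9) to 0.38 (Mrps16). They are Mrpl14, Mrpl16, Mrpl39, Mrpl45 and Mrpl48 of the large subunit and Mrps9, Mrps14, Mrps15, Mrps16, Mrps24 and Mrps31 of the small subunit, named as the rest of the count. In all of them every KAT7KO library lay above every Ctrl library. Mrpl45, which anchors the ribosome at the inner membrane, stood at 32.8, 40.5 and 42.5 CPM in Ctrl and 47.8, 49.5 and 45.9 CPM in KAT7KO. Mrps16 stood at 13.6, 17.9 and 18.6 CPM in Ctrl and 22.2, 22.1 and 21.1 CPM in KAT7KO. Mrps24 stood at 28.8, 39.8 and 41.9 CPM in Ctrl and 48.3, 46.1 and 47.7 CPM in KAT7KO. In each of these, Ctrl replicate 1 was the lowest library and the KAT7KO libraries were close together. These 3 were chosen after their values were seen.

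Mrps6, a small-subunit protein with a bacterial counterpart, was the only member called lower with all libraries. It was measured at 9.47, 8.5 and 8.18 CPM in Ctrl and 7.47, 5.92 and 5.91 CPM in KAT7KO. The genotypes did not overlap, and Ctrl replicate 1 was here the highest of all. Its log2 fold change came to -0.44 ± 0.13 (adjusted p = 0.0282), or 73.8% of Ctrl with a 95% interval of 60.6 to 89.9%, and -0.38 (adjusted p = 0.0473) without Ctrl replicate 1. The call was lost without Ctrl replicate 2 (adjusted p = 0.0604), KAT7KO replicate 2 (adjusted p = 0.116) or KAT7KO replicate 3 (adjusted p = 0.119), and the adjusted p in the authors' deposited table was 0.0664. Its exons overlap those of Slc5a3, a myo-inositol transporter gene on the same strand, and the RefSeq starts of the pair are 14 bases apart. Slc5a3 was measured at 6.38, 4.98 and 4.21 CPM in Ctrl and 2.66, 2.34 and 3.18 CPM in KAT7KO, a log2 fold change of -0.93 ± 0.20 (adjusted p = 0.00364). Reads from shared exons cannot be assigned to either gene with certainty, and how they were counted is not known. The values of Mrps6 and Slc5a3 may therefore not be independent.

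Mrpl42 had the next most negative log2 fold change, -0.17 (adjusted p = 0.138). It stood at 24.5, 25.3 and 27.9 CPM in Ctrl and 22, 23.7 and 23.2 CPM in KAT7KO, with no overlap, and reached -0.21 (adjusted p = 0.0494) without Ctrl replicate 1. Mrpl49 followed at -0.08 (adjusted p = 0.571), with overlapping genotypes. Mrpl43, at 15.6, 14.8 and 13.1 CPM in Ctrl and 18.1, 17.8 and 14.6 CPM in KAT7KO, is a member in which Ctrl replicate 1 was the highest Ctrl library. Its log2 fold change was 0.22 (adjusted p = 0.159), and 0.27 (adjusted p = 0.0464) without that library.

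Levels between genes were compared per length, in the authors' FPKM. Mrpl34 had the highest mean over the 6 libraries, 51.5 FPKM, followed by Mrpl12 at 47.4 and Mrps21 at 47.1 FPKM. Mrpl47 at 1.48, Mrps35 at 1.62 and Mrps30 at 2.81 FPKM were the lowest. Of these 6 genes only Mrpl12 passed the test between genotypes. Mrps21 ranged from 41.7 to 51.7 FPKM in Ctrl and from 45.3 to 50.3 FPKM in KAT7KO, so the genotypes overlapped. FPKM rests on the merged length of all annotated exons, which for 10 of the 77 genes was more than 3 times the length of the principal transcript. Mrpl33, with a merged length of 7326 bases and a principal transcript of 478 bases, is the extreme and was picked for that, and its 3.03 FPKM in Ctrl would be higher on the length of that transcript. The order of the genes also differed by principal transcript length. On that length Mrpl20 had the highest mean, 95.2 CPM per kilobase, with Mrps21 at 71.4 and Mrpl34 at 51.6.

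Reads of overlapping genes limit some of these values, because neither the strand setting nor the handling of multi-mapped reads is known from the labels. In GENCODE M21, exons of 32 of the 77 genes overlap another gene, 27 of them on the opposite strand. Of the members called higher, 7 are among the 32, including Mrpl12 (Gm16755), Mrpl24 (Rrnad1), Mrpl36 (Ndufs6) and Mrpl58 (Ict1os). Mrpl20, Mrpl30, Mrpl40 and Mrpl41 overlap no other gene there. Reads matching a pseudogene are likewise uncertain, and 5 pseudogenes in that annotation are named after members. In the authors' deposited table, 17 of the 77 genes were higher and 0 lower at an adjusted p under 0.05, against 6.42% of the 18039 genes listed as higher.

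Other lists around mitochondrial translation were pooled, including regulators of nuclear genes, transcription of mitochondrial DNA and the messenger RNAs it encodes. In them 10 of 105 tested genes (9.52%) were higher and 5 (4.76%) lower, against 10.7% and 13.2% of all genes. Ribosomal proteins with other names had 0 of 5 called, with Aurkaip1 at a log2 fold change of 0.18 (adjusted p = 0.28) and Dap3 at 0.08 (adjusted p = 0.577). Assembly factors and enzymes that modify ribosomal RNA had 3 of 28 higher and 0 lower, with a median of 0.12. The 3 were Mtg2, a GTPase of large-subunit assembly (0.35, adjusted p = 0.0165), Ddx28, a helicase of the same process (0.28, adjusted p = 0.0224), and Mpv17l2 (0.22, adjusted p = 0.0342). Translation factors had 3 of 18 higher and 0 lower, with a median of 0.20. These were Oxa1l, which inserts new chains into the inner membrane (0.19, adjusted p = 0.0308), Mrrf, the ribosome recycling factor (0.28, adjusted p = 0.0367), and Mtrfr, a rescue factor (0.33, adjusted p = 0.048). Mpv17l2, Mrrf and Mtrfr were not called without Ctrl replicate 1 (adjusted p of 0.0508 to 0.0527).

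Of 20 mitochondrial aminoacyl-tRNA synthetases and related enzymes, 2 were higher and 1 lower, with a median log2 fold change of 0.21. With all libraries, 10.7% of all genes were called higher and 13.2% lower. Wars2 was among the higher (0.42, adjusted p = 0.0139), and Vars2 was lower (-0.33, adjusted p = 0.049), a call that was lost without Ctrl replicate 1 (adjusted p = 0.0658). Transcription and RNA processing of mitochondrial DNA had 1 of 9 higher, Hsd17b10 (0.23, adjusted p = 0.027), while Tfam, which packages mitochondrial DNA, stood at 0.22 (adjusted p = 0.0768). Messenger RNAs encoded in the mitochondrial genome had 0 higher and 1 lower of 13, with a median of -0.04. Without Ctrl replicate 1, 6 of the 13 were lower (median -0.10), against 14.4% of all genes. With the length trend removed 5 were lower (median -0.11), against 12.2% of all genes, and 0 were higher in both fits. The one lower with all libraries was mt-Nd3, at 14, 11.1 and 10.3 CPM in Ctrl and 4.06, 5.57 and 6.11 CPM in KAT7KO (-1.17, adjusted p = 0.00015). By contrast, mt-Co1 stood at -0.04 (adjusted p = 0.512), and at -0.08 (adjusted p = 0.00625) without Ctrl replicate 1. Levels in this list were very uneven. Ctrl means were 7840 CPM for mt-Co1 and 1620 for mt-Nd1, but 28.6 for mt-Co2, 32.5 for mt-Co3 and 11.8 for mt-Nd3. How multi-mapped reads were handled is not known, and their part in the mt-Nd3 value was not tested. The mitochondrial ribosomal RNAs were not analysed here.

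Among 12 regulators of nuclear genes of mitochondria, 1 was higher and 3 were lower, against 10.7% and 13.2% of all genes. Without Ctrl replicate 1, 3 were higher and 3 lower, against 13.5% and 14.4% of all genes. Gabpb1, a subunit of the factor GABP, was among those gained (0.29, adjusted p = 0.0268). Myc, a transcription factor whose known targets include ribosome genes, was at 20.8, 20.9 and 18.6 CPM in Ctrl and 12.1, 12.5 and 13 CPM in KAT7KO (-0.68 ± 0.09, adjusted p = 0.000116). The coactivators of the PGC family differed in direction: Pprc1 (-0.36, adjusted p = 0.00346) and the sparsely counted Ppargc1a (-1.41, adjusted p = 0.0178) were lower, and Ppargc1b was higher (0.70, adjusted p = 0.0309). Nrf1 and Gabpa, whose motifs were searched above, had log2 fold changes of 0.04 (adjusted p = 0.709) and 0.20 (adjusted p = 0.0776; 0.24 and adjusted p = 0.0168 without Ctrl replicate 1), given because of that search.

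**Figure D5:**
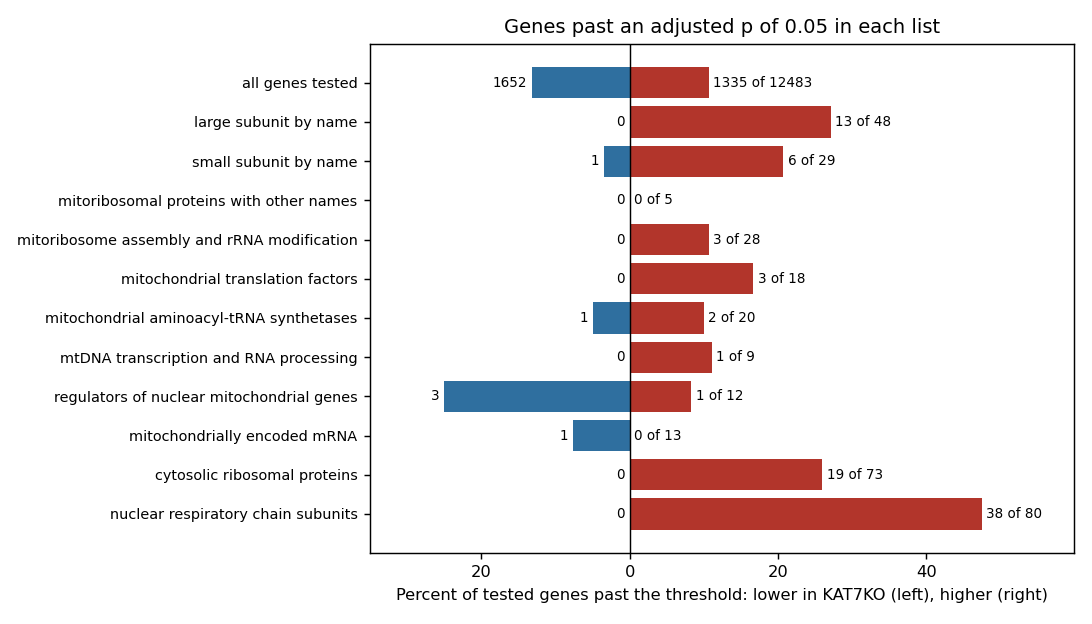
Percent of tested genes in each list that were lower (left) or higher (right) in KAT7KO at an adjusted p of 0.05, with the number called and tested beside each bar. Large-subunit and small-subunit names stand at 27.1% and 20.7% higher, all genes at 10.7%, cytosolic ribosomal proteins at 26% and nuclear respiratory chain subunits at 47.5%.

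Among the other nuclear gene groups, 19 of 73 tested cytosolic ribosomal protein genes were higher and 0 lower, with a median log2 fold change of 0.22, and 38 of 80 nuclear respiratory chain subunits were higher and 0 lower, with a median of 0.24. Without Ctrl replicate 1 these became 33 of 73 with a median of 0.10 and 41 of 80 with a median of 0.15, beside 18 of 77 and 0.10 for the mitochondrial ribosomal proteins. Over all genes, 10.7% were called higher with all libraries and 13.5% without Ctrl replicate 1. All 3 groups share the same libraries, and no test was made between them.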

How the data were processed

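RNA of 6 macrophage libraries, 3 Ctrl and 3 KAT7KO, was read from 1 deposited table, with groups and replicate numbers from the sample titles. The deposited count columns hold the authors' whole-number counts per gene, with no normalization. The FPKM columns hold, per the file headers, values the authors scaled to gene length and library size. The log2 fold change and the p-value and adjusted p-value columns of the table are the authors' own. The submitters' processing notes name the build GRCm39 and, with no version, FastQC, fastp, HISAT2, featureCounts and DESeq2. Gene length was derived from counts and FPKM, and for 77 of 77 members it equals the merged exon length in GENCODE M21 within 0.2%. Sequences and gene neighbours come from RefSeq and GENCODE on GRCm38, so their coordinates are not those of the table's build.

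Of 18039 genes, 12483 passed edgeR's filterByExpr. After TMM scaling, the quasi-likelihood test of edgeR 4.0.16 (R 4.3.3) was applied to the counts (robust, no block), with Benjamini-Hochberg adjustment over all genes tested and a threshold of 0.05. Levels are CPM after TMM scaling, and intervals are at 95%. Replicates differed by more than sampling noise, with a mean chi-square per gene of 2.68 to 20.2, so no library was treated as a repeat deposit of another; this does not show that they came from separate animals or cultures. The members and gene lists were chosen with earlier results of these data known. Genes named are Kat7, up to 8 members higher and lower in order of p, the 3 of highest and lowest FPKM, the 3 largest fold changes in each direction, calls lost or gained without Ctrl replicate 1, the Mrps18 genes, Mrps30 and Mrps36, and up to 4 called genes of each other list, filled to 2 by level. Lists were described by counts and medians, with no set test.

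Alternatives were DESeq2 size factors, upper-quartile factors, no filter, a filter at 5 CPM in 3 libraries, DESeq2 1.42.0, limma-voom (limma 3.58.1), the replicate number as a block, removal of a loess trend (span 0.5) on gene length, block and trend together, a test for over 1.2-fold, and leaving out each library. Added after seeing the data were the trend on principal transcript length, a robust trend, and the trend removed without Ctrl replicate 1. The table names no pseudogene of a member. The fits were tested on simulated data. Mrpl53 was not analysed here. The NRF1 core was taken after the longer form had been searched, and both are given. Some genes that the naming rule selects are not reported here.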

Additional observations from a re-analysis of the deposited data

How the results depend on the processing

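Direction was kept in every alternative by all members called with all libraries, and 27 of 40 named genes changed side of the threshold at least once. Mrpl20, Mrpl24, Mrpl30, Mrpl36 and Mrpl41 were the 5 members called in all 18 alternatives other than the test for over 1.2-fold. That test left 199 genes higher and 641 lower, with 1 member higher and 0 lower, 1 of the large and 0 of the small subunit higher, and 0 higher and 2 lower of the 105 genes in the other translation lists (10 and 5 with all libraries). With the length trend removed, 2554 genes were higher, 10 small-subunit members were higher, and the other lists held 21 higher and 8 lower. The trend on transcript length gave 2768 genes higher, 2 members lower, 1 of them of the large subunit, and 19 higher and 9 lower in the other lists. The robust trend gave 11 lower in the other lists. Without Ctrl replicate 1 and the trend, 2800 genes were higher, with 22 higher and 11 lower in the other lists. Deviations of same-numbered replicates were close to uncorrelated over genes (correlations 0, 0.01 and 0.02). With 3 libraries per group, and trends particular to single libraries, these values cannot exclude a pairing. The replicate block gave 21 members higher and 1 lower. Block and trend together gave 30 members higher, 11 of the small subunit, with 2546 genes and 21 of the other lists higher. Leaving out 1 library at a time gave 663 to 1708 genes higher and 1071 to 1820 lower. Members higher ranged from 6 (without KAT7KO replicate 2 or 3) to 35 (without Ctrl replicate 3), with 8 without KAT7KO replicate 1, and members lower from 0 to 2. Large-subunit calls ranged from 6 to 24 higher and 0 to 1 lower, small-subunit calls from 0 to 11 and 0 to 1, and the other lists from 1 to 16 and 3 to 10. Mrps6 was not called without Ctrl replicate 2 (adjusted p = 0.0604) or without KAT7KO replicate 2 or 3. Why the calls depend on these libraries was not tested.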
